A study of Mus musculus with 9 samples.

Results

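The cytosolic ribosomal protein genes were described here in RAW264.7 cells, a mouse macrophage line. They were taken by name as the protein-coding genes whose symbol starts with Rpl or Rps and a digit, together with Rplp0, Rplp1, Rplp2 and Rpsa, leaving out the Rps6k kinase genes and Rps19bp1. This rule took 93 symbols among the 54532 genes of the table, and 87 of them reached 1 FPKM or more in 3 or more of the 9 libraries, as did 11585 genes in all. FPKM is a read count scaled to the length of the gene and the size of the library. Of the 87 genes, 53 encode large-subunit proteins and 34 small-subunit proteins by their symbol. The 87 include 6 with the -ps or rt names of copies, which are annotated as protein-coding. There were 3 groups of 3 libraries: an untreated control, an LPS group (1 μg/ml) and an LPS + G-CDs group (the same LPS dose with 400 μg/ml of G-CDs), with 6 h of treatment in both treated groups. LPS is an outer membrane component of Gram-negative bacteria that activates macrophages, and G-CDs are carbon dots made from Glycyrrhiza. All samples carried the genotype label WT and the tissue label Ascites, and the third group is told from the second by its titles, since its treatment label names LPS alone. The labels do not say that replicates were separate cultures, and the study mentions independent experiments without saying whether this covers the RNA-seq libraries, so p-values measure the spread between these libraries, which may be technical.

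Ribosomal proteins assemble with ribosomal RNA into the small subunit, which decodes mRNA, and the large subunit, which joins amino acids. Their mRNAs are short and abundant and belong to the 5′ TOP class, which start with a C followed by a run of pyrimidines and are translated under the control of mTOR and Larp1. The mouse genome holds many processed pseudogenes of these genes, which are intronless copies of their mRNAs, so a read can fit several rows of a gene table. Macrophages given LPS make large amounts of new secreted protein, which has to be translated by these ribosomes.

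The label of the cells was met by their markers, as 8 of 9 macrophage markers (Csf1r, Adgre1, Cd68, Itgam, Lyz2, Spi1, Ptprc and Fcgr1) were at or above an FPKM of 1 in all 9 libraries. The ninth, Mrc1, reached at most 0.205. The fibroblast, epithelial and B cell markers stayed below 1 in every library, and of the T cell markers Cd3e and Cd3g did too, while Lck lay between 0.783 and 6.88. Libraries held 14752400 to 17312255 reads assigned to genes. The library sizes behind the FPKM values were 1.11 to 1.14 times these reads in the control group, 0.929 to 0.936 times in the LPS group and 0.88 to 0.98 times in the LPS + G-CDs group. A scaling that differs between groups is thus already part of the deposited values. As the libraries were made from bulk RNA, fewer cells of a type and less RNA per cell cannot be told apart.

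The start of the mRNA is shown first because it is the feature by which these genes are regulated together. Of the 87 genes, 62 had a promoter window in RefSeq (GRCm38.p6). In 14 of the 62 genes (22.6%) at least 1 annotated start was a C followed by at least 4 pyrimidines on the transcribed strand. The share was 3.01% of all 27025 genes with a window. Each line gives 15 bases before the annotated start and 15 from it, 5′ to 3′ on the strand of the gene, with the pyrimidine run from the start in capitals.
Rpl14 (chr9:120571502-120571531, plus strand): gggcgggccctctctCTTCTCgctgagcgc
Rpl15 (chr14:18270972-18271001, minus strand): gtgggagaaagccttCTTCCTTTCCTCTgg
Rpl28 (chr7:4792950-4792979, plus strand): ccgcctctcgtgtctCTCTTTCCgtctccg
Rpl35 (chr2:39005117-39005146, minus strand): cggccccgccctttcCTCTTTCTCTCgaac
Rpl35a (chr16:33056467-33056496, plus strand): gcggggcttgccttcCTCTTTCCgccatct
Rpl38 (chr11:114668565-114668594, plus strand): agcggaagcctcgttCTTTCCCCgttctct
Rplp2 (chr7:141447636-141447665, plus strand): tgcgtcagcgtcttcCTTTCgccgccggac
Rps10 (chr17:27635230-27635259, minus strand): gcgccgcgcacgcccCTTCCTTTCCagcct
Rps15a (chr7:118116133-118116162, minus strand): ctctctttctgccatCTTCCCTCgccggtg
Rps18 (chr17:33955651-33955680, minus strand): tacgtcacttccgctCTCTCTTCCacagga
Rps21 (chr2:180257364-180257393, plus strand): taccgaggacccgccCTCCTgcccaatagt
Rps27 (chr3:90213634-90213663, minus strand): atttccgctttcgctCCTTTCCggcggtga
Rps27rt (chr9:114982725-114982754, minus strand): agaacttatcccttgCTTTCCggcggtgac
Rps6 (chr4:86857353-86857382, minus strand): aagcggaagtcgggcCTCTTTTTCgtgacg
The longest run was that of Rpl15, with 13 bases, and the shortest were those of Rplp2 and Rps21, with 5 bases. The windows of 300 bases were searched on both strands, and a gene was counted if any of its windows held the word. CTTTCC was present for 53.2% of the 62 genes (29.3% of all genes with a window), CCGGAAG for 40.3% (9.93%), GCCATCTT for 9.68% (3.19%) and TATAAA for 11.3% (15.7%). A window without the run says only that these letters do not stand at the RefSeq start.

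Rows of the table could not always be told apart by sequence. The coding sequence of Rps27 (gene at chr3:90212522-90213651, minus strand, GRCm38) equaled that of Rps27rt (chr9:114982366-114982739), a copy that is annotated as a protein-coding gene and is the shortest of the 87. It is printed once because both genes share it over 252 bases.
Rps27 and Rps27rt: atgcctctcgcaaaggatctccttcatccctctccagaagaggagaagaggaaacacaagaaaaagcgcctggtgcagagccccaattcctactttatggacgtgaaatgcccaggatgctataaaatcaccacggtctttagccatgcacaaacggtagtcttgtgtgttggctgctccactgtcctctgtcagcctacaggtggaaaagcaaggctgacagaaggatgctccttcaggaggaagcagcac
The coding sequence of Rpl26, a large-subunit protein (gene at chr11:68901583-68906989), and the same stretch of its pseudogene Gm15772 (chr5:3236431-3236868) differed at 2 of the first 300 bases, which are in capitals.
Rpl26: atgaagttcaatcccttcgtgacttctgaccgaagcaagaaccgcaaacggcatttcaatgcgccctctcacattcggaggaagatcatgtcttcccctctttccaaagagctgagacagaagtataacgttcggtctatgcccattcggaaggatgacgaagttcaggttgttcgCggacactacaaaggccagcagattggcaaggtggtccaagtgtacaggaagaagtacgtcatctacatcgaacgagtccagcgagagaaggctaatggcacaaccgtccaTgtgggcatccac
Gm15772: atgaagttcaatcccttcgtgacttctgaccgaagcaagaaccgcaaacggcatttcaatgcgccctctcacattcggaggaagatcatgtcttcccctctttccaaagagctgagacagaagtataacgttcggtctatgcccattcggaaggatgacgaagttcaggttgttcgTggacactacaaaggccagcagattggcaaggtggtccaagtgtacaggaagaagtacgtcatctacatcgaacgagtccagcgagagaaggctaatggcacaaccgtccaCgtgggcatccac
The table assigned Rpl26 between 101 and 280 reads per library and Gm15772 between 6771 and 16363. Across the 9 libraries, Gm15772 held 97.9% to 98.7% of the reads of the pair. Which of these reads came from mRNA of Rpl26 was not tested.

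The 87 genes covered a wide range of levels. Their mean FPKM over the 9 libraries had a median of 264 and ran from 1.51 for Rpl21 to 2505 for Rplp1, which encodes an acidic protein of the ribosomal stalk. The next highest were Rps3a1, a small-subunit protein, with a mean of 1447, and Rpl4, a large-subunit protein, with 1363. The other stalk genes were lower, at 563 for Rplp0 and 212 for Rplp2. The order in FPKM depends on the deposited gene length, which was 499 bases for Rplp1 but 2072 for Rplp2. A coding transcript of each has 499 and 421 bases. In reads summed over the 9 libraries, Rplp1 had 174479 and Rplp2 had 61600.

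At the low end, 15 genes had a mean under 40 FPKM, and 13 of these either had a pseudogene with more reads than their own or shared over 10% of their exon bases with another gene on the same strand. In all, 68 of the 87 genes shared at least 20% of their 50-base words with a pseudogene, and the 300 pseudogenes assigned to them held 1148671 reads against 6643955 on the genes themselves. For 13 genes a single pseudogene held more reads than the gene. Rps2, a small-subunit protein, had 7918 reads summed over the 9 libraries, and Rps2-ps10 had 106872. Rpl29 had 415 and Gm13841 had 18525, while Rplp0 had 130031 and Gm8730 had 138098. Levels of these genes in FPKM are therefore uncertain, and Rpl24, Rpl36al, Rps10 and Rpl13a are uncertain also because between 20.6% and 47% of their exon bases lie in another gene.

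**Figure D1:**
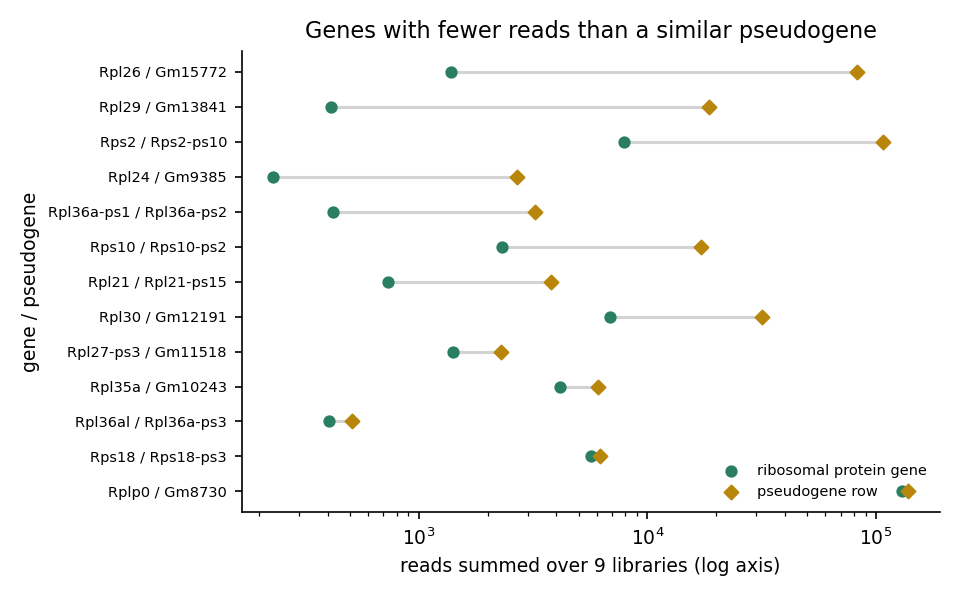
Reads summed over the 9 libraries (log axis) of the 13 ribosomal protein genes (circles) with fewer reads than a pseudogene that shares their sequence (diamonds), ordered by the ratio between them. The gap was widest for Rpl26, with 1389 reads against 82511 on Gm15772, and narrowest for Rplp0. Among the 13, Rpl27-ps3 and Rpl36a-ps1 are themselves named as copies.

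The values nearest the limit of 1 FPKM were those of Rpl21, with 1.12 to 2.38, and Rpl24, with 0.855 to 3.94. Of the 6 symbols left out, Rpl9-ps1 reached at most 0.961 and Rpl3l, the muscle paralog of Rpl3, at most 0.649. Rpl10l, Rpl39l, Rpl36-ps4 and Rpl13a-ps1 had 0 reads in all 9 libraries. Among the paralog pairs that were measured, Rpl22l1 stood at 0.311 ± 0.0609 (SD, n = 3) of the FPKM of Rpl22 in control, 0.359 ± 0.0196 in LPS and 0.343 ± 0.0298 in LPS + G-CDs libraries. Rpl7l1 stood at 0.178 ± 0.0306, 0.172 ± 0.00797 and 0.153 ± 0.0228 of Rpl7 in the same order. Rpl36al stood at 0.0217 ± 0.0105, 0.0283 ± 0.00942 and 0.0215 ± 0.00593 of Rpl36a. These 3 ratios moved between groups by less than their spread among the control libraries. Rps27l stood at 1.62 ± 0.362, 1.27 ± 0.297 and 1.09 ± 0.135 of Rps27, which moved by more than the control spread from control to LPS + G-CDs, and the reads of Rps27 cannot be told from those of Rps27rt over their coding sequence.

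The share of all reads that fell on the 87 genes differed widely among the libraries of the control and LPS + G-CDs groups. It was 4.07%, 3.87% and 6.01% in the control libraries, 3.84%, 3.63% and 3.88% in the LPS libraries, and 3.82%, 5.21% and 7.80% in the LPS + G-CDs libraries. The LPS libraries lay close together, and LPS + G-CDs replicate 1 lay within their range. LPS + G-CDs replicate 3 stood above all others, and control replicate 3 and LPS + G-CDs replicate 2 stood above the remaining 6.

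**Figure D2:**
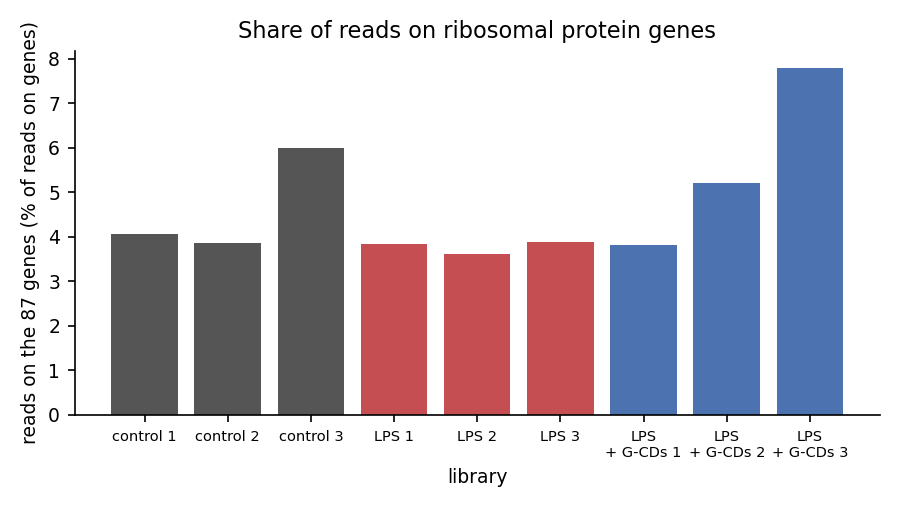
Percent of the reads on genes that fell on the 87 ribosomal protein genes, 1 bar per library, with an axis from 0 (control grey, LPS red, LPS + G-CDs blue). The bars run from 3.63% in LPS replicate 2 to 7.80% in LPS + G-CDs replicate 3.

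LPS + G-CDs replicate 3 also stood highest gene by gene, while the order of the other libraries was not that of the read shares. Measured as log2(FPKM + 1) minus the gene's own mean over the 9 libraries, the median of the 87 genes was 0.97 in LPS + G-CDs replicate 3, 0.26 in replicate 2 and -0.17 in replicate 1. It was -0.28, -0.40 and 0.25 in the control libraries and between -0.22 and -0.12 in the LPS libraries, while the median of all 11585 genes stayed between -0.01 and 0.03. LPS + G-CDs replicate 3 held the highest value of 83 of the 87 genes (95.4%), and of 27.2% of all genes. The lowest value lay in control replicate 2 for 42 genes and in control replicate 1 for 35.

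These departures went along with gene length. The 87 genes had a median length of 1726 bases against 3758 for all genes tested, and 80 of them were shorter than the latter. This is the deposited gene length, which for 81 of the 87 genes equaled all bases in annotated exons of the gene. It can exceed the length of the mRNA, and a trend over mRNA length was not tested. At the lengths of the 87 genes, the trend of all genes over length was 0.41 in LPS + G-CDs replicate 3, 0.11 in replicate 2 and 0.17 in control replicate 3, and between -0.12 and -0.04 in the other 6 libraries. With this trend subtracted, the median of the 87 genes was still 0.59 in LPS + G-CDs replicate 3, 0.19 in replicate 2 and -0.06 in replicate 1, and -0.22, -0.33 and 0.10 in the control libraries. RNA quality was not measured here, and its part in the difference between libraries was not tested.

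**Figure D3:**
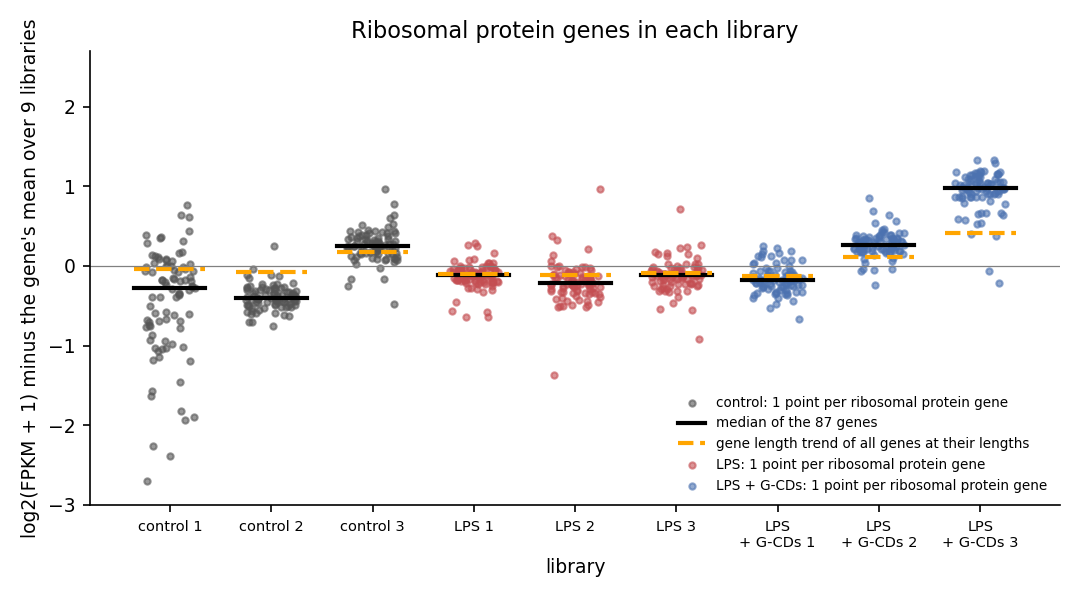
Each point is 1 of the 87 ribosomal protein genes in 1 library, as log2(FPKM + 1) minus the gene's mean over the 9 libraries, with the median of the 87 genes (black bar) and the trend of all genes over length at their lengths (dashed orange bar). The points of LPS + G-CDs replicate 3 sit highest, with a median of 0.97, and those of control replicate 1 are spread most widely.

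Control replicate 1 differed in another way, as single genes departed from the rest. The SD of the 87 genes around their own median in that library was 0.689 on the log2 scale, against 0.152 to 0.254 in the other 8. In 9 genes (10.3%) its FPKM was below 0.5 times the lowest of the other 8 libraries, as it was in 1.99% of all genes. Among these were Rpl27, Rpl31, Rps27, Rps27rt, Rpl9-ps6, Rpl10-ps3 and Rpl27-ps3. Rpl27-ps3 shared 100% of its words with Rpl27, and Rps27rt shared 91.1% with Rps27. A read can fit both rows of such a pair, so the 9 genes are not 9 separate observations. Rpl10-ps3 shared 96.1% with Rpl10 and Rpl9-ps6 shared 89.2% with Rpl9, but neither Rpl10 nor Rpl9 was among the 9. Rpl31, a large-subunit protein, had 32.0 FPKM in control replicate 1, 193 and 292 in the other controls, 203 to 254 in the LPS libraries and 244 to 540 in the LPS + G-CDs libraries. Rpl27, another large-subunit protein, had 73.0 in control replicate 1, against 243 and 342 in the other controls. In the opposite direction Rpl37a had 419, against 159 and 276, and Rps3a1 had 2158, against 976 and 1455. Over the 87 genes, the departure in control replicate 1 correlated with log2 gene length at r = 0.229, with GC content at r = 0.106 and with the share of words found in other genes at r = -0.127, which are descriptions over genes that share 1 library.

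**Figure D4:**
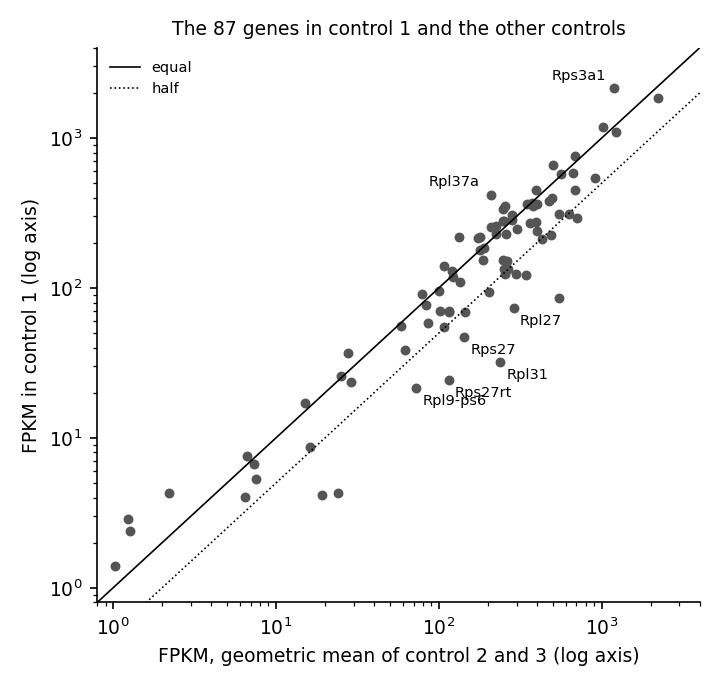
FPKM of the 87 ribosomal protein genes in control replicate 1 against the geometric mean of control replicates 2 and 3 (both axes log), with lines of equality and of 0.5 times. Rpl31, Rpl27 and Rps27rt lie far below the lower line, while Rpl37a and Rps3a1 lie above the upper one.

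LPS against control asked what 6 h of LPS did to these genes, and no ribosomal protein gene passed the test. With limma on log2(FPKM + 1) and Benjamini-Hochberg adjustment over the 11585 genes, 0 of the 87 were called at an adjusted p under 0.05, while 31.3% of all genes were (15.8% higher and 15.6% lower). None of the 87 reached an unadjusted p under 0.05, nor did any with voom on the reads, although 41.9% of all genes did in limma. Their median log2 fold change was 0.01, against 0.02 for all genes, with 44 positive and 43 negative. In the large subunit 25 of 53 were positive with a median of -0.02, and in the small subunit 19 of 34 with a median of 0.01. The groups did not overlap for 1 gene, Rpl22, which was below control (25.1% of all genes were), and for none of the 87 in the direction above control (27.4%).

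The precision allowed a bound for most of them. The 95% confidence interval of the log2 fold change lay within -1 to 1 for 59 of the 87 genes, and the median standard error was 0.33, against 0.18 for all genes. Rpl22, whose protein also binds RNA outside the ribosome, had 96.2, 81.9 and 122 FPKM in control and 77.2, 76.6 and 78.1 in LPS libraries. Its log2 fold change of -0.35 ± 0.28 (SE) had an adjusted p of 0.381 in limma, and the groups were separate by a small gap. Under TPM, which rescales each library to a common sum, the median of all genes shifted to -0.23 and Rpl22 was called lower, at -0.62 with an adjusted p of 0.0249. Under TPM 1003 of all genes were called higher and 3059 lower, in place of 1827 and 1803, and the median of the 87 genes was -0.26, close to that of all genes. With quantile normalization 12 of the 87 (13.8%) were called lower, against 20.3% of all genes. Their median was then -0.27, against -0.06 for all genes.

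Genes low in control replicate 1 were among those with the largest log2 fold changes after LPS. The changes were 1.05 ± 0.55 (SE) for Rps27rt, 0.91 ± 0.70 for Rpl31, 0.71 ± 0.51 for Rpl27, 0.68 ± 0.61 for Rpl27-ps3 and 0.54 ± 0.50 for Rpl9-ps6. Rpl24 stood at 0.48, and none of these genes had an adjusted p below 0.187 in limma. Without control replicate 1 these changes were 0.32 for Rps27rt, 0.06 for Rpl27, 0.03 for Rpl27-ps3 and -0.04 for both Rpl31 and Rpl9-ps6. The lowest were -0.53 ± 0.43 for Rps27a, which encodes a fusion of ubiquitin and a small-subunit protein, -0.49 ± 0.38 for Rpl37a and -0.44 ± 0.27 for Rpl29, followed by Rpl36a-ps1 (-0.37), Rpl22, Rpl11 (-0.34), Rps3a1 (-0.31) and Rps12 (-0.29). Without control replicate 1, Rpl36a-ps1 stood at -0.52, Rps27a at -0.59, Rpl22 at -0.37, Rpl37a at -0.16, Rpl29 at -0.21, Rpl11 at -0.19, Rps3a1 at -0.02 and Rps12 at -0.16. Rpl11, which with Rpl5 binds and inhibits the p53 ligase Mdm2, had 338, 196 and 310 FPKM in control and 227, 193 and 228 in LPS libraries, so its groups overlapped. Rpl5 had 155, 204 and 299 in control and 230, 231 and 230 in LPS libraries.

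Unlike Rpl22, the following genes with known work outside the ribosome or in control of translation overlapped between control and LPS. Rps6, the phosphorylated target of S6 kinase, had a mean of 725 ± 162 (SD, n = 3) FPKM in control and 682 ± 32.2 in LPS libraries. Rps3, also a partner of the NF-κB subunit p65, had a log2 fold change of -0.23 ± 0.32 (SE). Rpl13a, which silences inflammatory mRNAs as part of the GAIT complex, had one of -0.18 ± 0.25, with the limit that 29.4% of its exon bases lie in another gene. Rpsa, also known as a laminin receptor, had 0.14 ± 0.36, and Rpl38, linked to the translation of Hox mRNAs, -0.20 ± 0.33. Rps19 and Rps14, which are linked to anemia in humans, had 0.03 ± 0.36 and -0.07 ± 0.36. The signs for Rpsa, Rpl38, Rps19 and Rps14 turned under at least 1 alternative, among them leaving out control replicate 1 for the first 3.

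LPS + G-CDs against LPS asked what the carbon dots changed in LPS-treated cells, using the same LPS libraries as the comparison above. Nearly all ribosomal protein genes were on average higher, and none passed the test. In limma 0 of the 87 were called, against 0.492% of all genes (0.25% higher and 0.242% lower), and 7 had an unadjusted p under 0.05 (Rps27a, Rpl26, Rps29, Rpl36a, Rpl17, Rps28 and Rpl37), against 15.2% of all genes. Voom on the reads called 0 and gave 10 at an unadjusted p under 0.05. The median log2 fold change of the 87 genes was 0.52, against 0.02 for all genes, and 86 were positive, all but Rpl24. The medians were 0.53 for the large and 0.51 for the small subunit.

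This median moved most with LPS + G-CDs replicate 3. Without that library it was 0.19, without replicate 1 it was 0.79, and without any other library of the comparison it lay between 0.49 and 0.56. The number of genes at an unadjusted p under 0.05 was 52 without LPS + G-CDs replicate 1, 4 without replicate 2 and 0 without replicate 3. It was 4, 0 and 1 without LPS replicates 1, 2 and 3, and 0 genes were called in each case. With the trend over gene length removed it was 0.29 with 82 of the 87 positive, under TPM 0.36 with the median of all genes at -0.14, and with quantile normalization 0.26. The replicate SD of a gene on the log2 scale had a median over the 87 genes of 0.585 in the LPS + G-CDs, 0.443 in the control and 0.102 in the LPS group, against 0.259, 0.244 and 0.0867 over all genes. The 95% confidence interval lay within -1 to 1 for 12 of the 87 genes, and for 53 under TPM, 66 with quantile normalization and 60 with the trend over gene length removed.

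The change went along with the deposited gene length among all genes, but less so among the 87. With all genes cut into 10 classes of near equal size by length, their median log2 fold change went from 0.31 at 685 to 1569 bases down to -0.32 in the class with the longest genes, and was 0.05 in that with the shortest. The 28 ribosomal protein genes of 685 to 1569 bases had a median of 0.55. The 23 of 1570 to 2351 bases had one of 0.48 against 0.25 for all genes, and the 13 of 2352 to 3033 bases had 0.50 against 0.17. The longest of the 87, Rps15a with 6270 bases, had 61.8, 61.1 and 55.4 FPKM in LPS and 61.2, 83.2 and 145 in LPS + G-CDs libraries, and a log2 fold change of 0.60 ± 0.34 (SE). Its transcript used for shared words has only 640 bases, so a class of long genes can hold short mRNAs. LPS + G-CDs replicate 1 lay within the range of the LPS libraries for that gene.

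**Figure D5:**
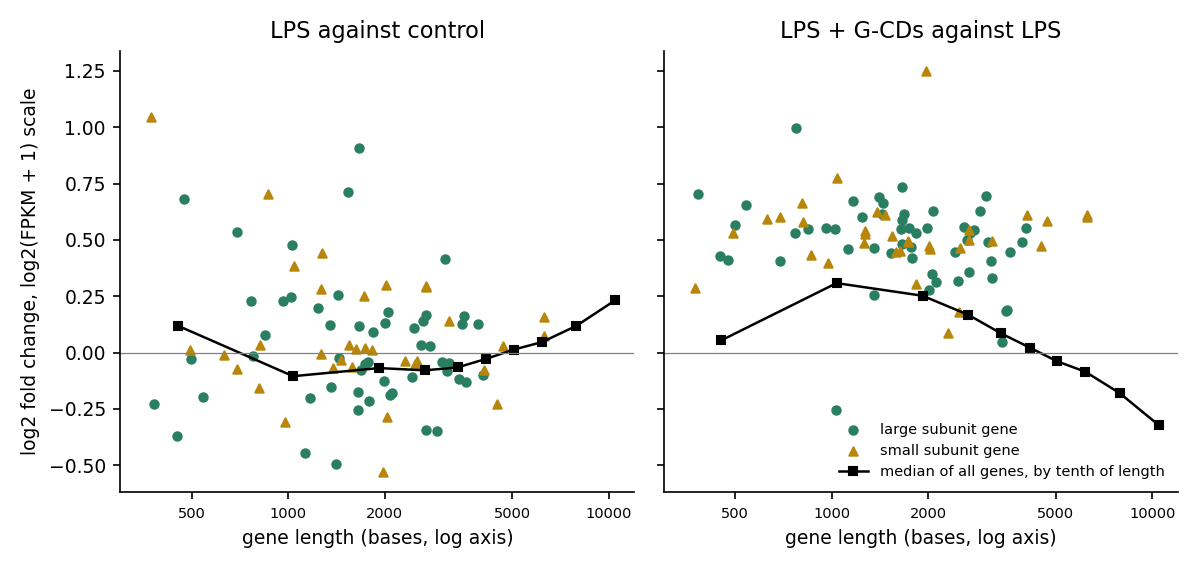
Log2 fold change of the 87 ribosomal protein genes (circles for the large, triangles for the small subunit) against gene length (log axis) in both comparisons, with the median of all genes in each of 10 length classes (black squares, drawn at the geometric middle of the class within the plotted range). On the right 86 of the 87 points lie above 0 while the black line falls from 0.31 to -0.32 beyond the shortest class, and on the left they scatter around 0.

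The groups did not overlap, with LPS + G-CDs above LPS, for 13 of the 87 genes (14.9%), beside 12.9% of all genes, and for 0 in the other direction (15% of all genes). The 13 were Rpl17, Rpl22, Rpl26, Rpl30, Rpl36a, Rpl37, Rpl37a, Rpl38, Rpl39, Rpl41, Rps27l, Rps28 and Rps29. Rpl41, among the smallest proteins of the ribosome, had 519, 452 and 473 FPKM in LPS and 552, 673 and 1209 in LPS + G-CDs libraries, with a log2 fold change of 0.67 ± 0.34 (SE). Rps29, a small-subunit protein that binds zinc, had 134, 101 and 113 in LPS and 148, 142 and 260 in LPS + G-CDs libraries. Rpl36a had 77.6, 64.4 and 66.2 in LPS and 83.5, 102 and 182 in LPS + G-CDs libraries. In each the nearest libraries of the 2 groups stood close together and LPS + G-CDs replicate 3 stood far above.

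The largest changes, those of Rps27a, Rpl17 and Rps27, were in genes that varied by over 1.5-fold among the LPS libraries. Rps27a had 165, 99.3 and 305 FPKM in LPS and 287, 403 and 589 in LPS + G-CDs libraries, with a log2 fold change of 1.25 ± 0.43 (SE) and an adjusted p of 0.284 in limma. Its lowest LPS + G-CDs library lay below its highest LPS library, and without LPS replicate 2 its change was 0.86. Rpl17, next in order, had 277, 234 and 139 in LPS and 284, 385 and 663 in LPS + G-CDs libraries, at 1.00 ± 0.42. It was 0.71 without LPS replicate 3. After Rps27 came Rpl36a (0.74), Rpl36 (0.70), Rpl30 (0.70), Rpl37a (0.69) and Rpl41 (0.67), of which only Rpl30 varied that much. The LPS libraries differed by over 1.5-fold in 13 of the 87 genes (14.9%), as they did in 14% of all genes, and over the 87 genes the ratio of the highest to the lowest had a median of 1.14.

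Rps27 and its copy Rps27rt went apart in the LPS libraries. Rps27, at 0.78 ± 0.49 (SE) after G-CDs, had 173, 128 and 97.2 FPKM in LPS libraries, where Rps27rt had 112, 133 and 199. In reads, the pair together held 3073, 2524 and 2553 in these libraries, of which Rps27rt had 18.8%, 27.1% and 42.3%. The summed reads thus differed less than the share of each row. The printed sequence is common to both rows, and how the reads were divided is not given in the sources used here.

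At the other end, Rpl24, a large-subunit protein, had 1.34, 3.94 and 1.34 FPKM in LPS and 1.95, 1.46 and 1.18 in LPS + G-CDs libraries, which is -0.26 ± 0.29 (SE). It rests on 231 reads in all 9 libraries, and 47% of its exon bases lie in another gene. Adding the reads of its pseudogenes turned the change to 0.47. The next smallest were 0.05 ± 0.17 for Rpl21, 0.09 ± 0.19 for Rps10, 0.18 ± 0.19 for Rps18, 0.18 ± 0.15 for Rpl7l1 and 0.19 ± 0.25 for Rpl35a, followed by Rpl36al (0.26) and Rpl4 (0.28). Of these 7, all but Rpl7l1 and Rpl4 are among the 13 genes with fewer reads than a pseudogene. Adding the reads of pseudogenes to the genes left 0 of the 87 called in both comparisons, with medians of 0.02 for LPS against control and 0.50 for LPS + G-CDs against LPS.

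Among the stalk genes and the genes with other known work, Rplp1, Rplp0 and Rps6 were likewise highest in LPS + G-CDs replicate 3. Rplp1 had 2056, 1898 and 2190 FPKM in LPS and 1833, 2890 and 5240 in LPS + G-CDs libraries. Rplp0 had 515, 464 and 500 and then 493, 640 and 1027, and Rps6 had 691, 646 and 709 and then 642, 893 and 1400. In all 3 genes LPS + G-CDs replicate 1 was inside or below the LPS range, and the other two were above it. The log2 fold changes were 0.57 ± 0.38 (SE) for Rplp1, 0.48 ± 0.33 for Rplp0, 0.63 ± 0.34 for Rplp2, 0.45 ± 0.29 for Rps6, 0.53 ± 0.33 for Rpl11 and 0.49 ± 0.30 for Rpl5, with adjusted p between 0.35 and 0.41 in limma.

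Genes of the cytosolic ribosome that the naming rule omits were compared as well. Fau, which encodes a ribosomal protein fused to a ubiquitin-like protein, and Rack1, a scaffold on the small subunit, had log2 fold changes of -0.03 and 0.22 after LPS and 0.60 and 0.36 with G-CDs added, neither called. After LPS Rack1 turned to -0.05 under TPM and -0.10 with quantile normalization, and Fau to 0.19 without control replicate 3. Fau had 602, 505 and 605 FPKM in LPS and 551, 818 and 1422 in LPS + G-CDs libraries. The mitochondrial ribosomal protein genes, which build a separate ribosome, had a median of 0.41 with 76 of 77 positive and 0 called in LPS + G-CDs against LPS. Their median departure was 0.68 in LPS + G-CDs replicate 3, and their median length was 2255 bases.

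Other lists of the translation machinery held genes that passed the test after LPS, in shares above, near or below the 15.8% higher and 15.6% lower of all genes. Of 86 factors of ribosome biogenesis, 23 rose (26.7%) and 1 fell (1.16%), with a median log2 fold change of 0.33. With the replicate number as a block 28 rose and with the length trend removed 35, while fewer than 23 rose without any 1 LPS library or control replicate 2. Riok2, a kinase of small-subunit maturation, rose by 0.94 ± 0.11 (SE), from 8.64 to 10.9 FPKM in control to 18.6 to 20.2 in LPS libraries. Ubtf, a factor for transcription of ribosomal DNA, fell by 0.89 and was the exception. Under TPM the calls were 1 higher and 2 lower and the median was 0.07, beside -0.23 for all genes.

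Of 38 initiation factors 9 rose (23.7%) and 0 fell, under TPM 3 rose and 3 fell, and with quantile normalization 4 rose and 2 fell. With the replicate number as a block 12 rose and with the length trend removed 14, while fewer than 9 rose without any 1 LPS library. Eif4g2, which drives cap-independent initiation, rose by 1.14, from 119 to 159 FPKM in control to 306 to 321 in LPS libraries. Of 8 elongation and termination factors 3 rose (37.5%), among them the release factor gene Etf1, by 0.88 ± 0.12 (SE), and 0 fell, with a median of 0.31. Under TPM 2 rose and 1 fell with a median of 0.04, and with quantile normalization 2 rose and 2 fell with a median of -0.16. Of 17 other genes with 5′ TOP mRNAs, 0 rose and 1 (5.88%), Vim, which encodes vimentin, fell by 0.99. With the replicate number as a block 1 rose and 1 fell, with the length trend removed 4 and 1, under TPM 0 and 3 and with quantile normalization 0 and 4. Of 10 hosts of small nucleolar RNAs, 0 rose and 1, Snhg5, fell by 0.95, while 1 rose and 2 fell with the replicate block, 0 and 2 with voom and 0 and 3 under TPM.

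In the list of translation control 7 of 36 rose (19.4%) and 6 fell (16.7%), and with the replicate number as a block 9 rose and 6 fell. Myc, a transcription factor that drives ribosome production, had 0.0196, 0.13 and 0.0827 FPKM in control, 34.1, 33.2 and 36.0 in LPS and 16.2, 19.3 and 20.9 in LPS + G-CDs libraries. It rose by 5.04 after LPS on the log2(FPKM + 1) scale, with an adjusted p of 1.79e-08 in limma. In LPS + G-CDs against LPS it fell by 0.85 ± 0.12 (SE) with an adjusted p of 0.0229 in limma, the groups did not overlap, and no other gene of these lists was called. This call was lost in 7 of 20 alternatives, with adjusted p of 0.0675 with voom, 0.204 with a pseudocount of 0.1, 0.0734 with the 6 libraries alone, and 0.143, 0.137, 0.13 and 0.143 without LPS replicates 1, 2 and 3 and LPS + G-CDs replicate 2. With the length trend within each group removed, which keeps the trend between groups, others of these lists were called too. Among them were 5 mitochondrial ribosomal protein genes higher and 3 biogenesis and 2 initiation factors lower. Eif2ak2, the kinase PKR, rose by 2.05 after LPS, and Sesn1, an inhibitor of mTOR signaling, fell by 2.17. Of 13 genes of ribosome rescue and quality control 4 rose (30.8%; 2 without any 1 LPS library or control replicate 2 or 3) and 0 fell, while 2 rose and 1 fell under TPM and 3 rose and 1 fell with quantile normalization. Among those that rose were Ascc3, by 1.59, and Map3k20, the sensor of stalled ribosomes ZAK, by 1.13.

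Of the 77 mitochondrial ribosomal protein genes, 1 rose (1.3%) and 8 fell (10.4%) after LPS, with a median of -0.15. With the replicate number as a block 14 fell, under TPM 29, and with the length trend removed 14 fell and 4 rose. Without any 1 LPS library or control replicate 3, 1 or 2 fell. Mrps6 fell by 1.55, from 32.8, 42.1 and 63.0 FPKM in control to 14.1, 15.3 and 14.1 in LPS libraries, and Mrpl34 fell by 1.16. Mrpl52 rose by 1.16 ± 0.35 (SE), from 23.9 to 53.6 FPKM in control to 77.3 to 91.1 in LPS libraries. The calls of Mrpl34 and Mrpl52 were each lost without any 1 of 5 of the 6 libraries, with adjusted p in limma of up to 0.0628 and 0.101.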

How the data were processed

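RNA-seq was done on RAW264.7 cells in 3 groups of 3 libraries. The authors deposited FPKM values per gene and library with gene lengths and coordinates, and the aligner, counting method, annotation and test are not given in the sources used here. The submitters' processing notes name the builds GRCm38 and mm10, and coordinates equaled GENCODE mouse release 21 for 53499 of 54409 shared genes. Multiplied by gene length, 100% of FPKM values gave whole reads (within 0.05), used for depth and for voom. Testing used log2(FPKM + 1) of the genes that reached 1 FPKM in 3 or more libraries and limma 3.58.1 (R 4.3.3, eBayes with trend, 1 model of 9 libraries, two-sided), with Benjamini-Hochberg adjustment over 11585 genes. The pseudocount shrinks the fold change of low genes. Length trends were lowess fits (span 0.3, statsmodels 0.14.6). Shared 50-base words, pseudogenes and exon overlaps came from GENCODE release 21. The columns of other samples numbered 0.

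Control and LPS libraries that carry the same replicate number deviated together from the means of their groups (r = 0.103, 0.137 and 0.113, each over the limit of 0.1). By this limit the numbers pair them, although no label says what a number stands for.

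The members, gene lists and alternatives were chosen with earlier results of these data known. Named were the 8 largest changes in each direction of a comparison, the 3 highest genes, paralog pairs, stalk genes, genes at the filter limit, a fixed set with known other work, the shortest and longest, and up to 3 called genes of each list. The genes set out for control replicate 1, for separate groups and for pseudogenes were chosen after their values were seen. Some genes that this rule would name are not reported here.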

Additional observations from a re-analysis of the deposited data

How the results depend on the processing

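No ribosomal protein gene was called in either comparison with a pseudocount of 0.1, with no filter or a stricter one, with the 6 libraries alone, without the variance trend, with voom, with the replicate block or without any 1 library. In LPS against control 1 was called lower under TPM (1.15%, against 26.4% of all genes), with a median of -0.26. With quantile normalization 12 were called lower (13.8%, against 20.3% of all genes), with a median of -0.27. In LPS + G-CDs against LPS, 1 (Rpl26) was called higher, at a median of 0.52, once the length trend within each group was removed. That setting lowers the spread within groups but keeps the length trend between them. With the whole length trend removed, 0 of the 87 were called. Each library left out in turn gave medians between -0.10 and 0.21 for LPS against control, the lowest without control replicate 2 and the highest without control replicate 3, and between 0.19 and 0.79 for LPS + G-CDs against LPS. With the replicate block the medians were 0.01 and 0.52, 3 and 15 genes had an unadjusted p under 0.05, and no call changed among the 87 genes. The same-numbered LPS and LPS + G-CDs libraries correlated at 0.095, 0.08 and 0.143, not all over the limit of 0.1. Differently numbered libraries of these 2 groups correlated at -0.164 to 0.068, so the limit does not settle whether the numbers pair them. Left out together, a choice made after seeing the data, control replicate 1 and LPS + G-CDs replicate 3 left medians of -0.07 and 0.19 and 0 calls, and 35 in place of 23 called rises of biogenesis factors.

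Among the ribosomal protein genes, Fau and Rack1, none of them called, the sign of a fold change given here turned as follows. In LPS against control, leaving out control replicate 1, alone or with LPS + G-CDs replicate 3, gave -0.042 for Rpl31 and -0.0352 for Rpl9-ps6, whose highest values without 1 library were 1.53 and 1.03, each without control replicate 3. The same choices gave -0.0665 for Rpsa, 0.0416 for Rpl38 and -0.206 for Rps19. TPM gave -0.13 for Rpsa, -0.24 for Rps19 and -0.0519 for Rack1, and quantile normalization -0.287, -0.128 and -0.105. Removing the length trend, with or without the replicate block, gave 0.0881 for Rps14 and 0.0466 for Fau. The values without 1 library ran from -0.29 to 0.0975 for Rps14, from -0.212 to 0.19 for Fau and from -0.531 for Rpl38, with the lowest without control replicate 2, and up to 0.343 for Rps19 and 0.401 for Rpsa without control replicate 3. Adding the reads of pseudogenes gave -0.163 for Rpl24 and 0.306 for Rpl29. In LPS + G-CDs against LPS, removing the length trend, with or without the replicate block, gave -0.0419 for Rpl21, -0.0227 for Rpl36al, -0.12 for Rps10 and -0.00678 for Rps18. TPM gave -0.0684 for Rpl21 and -0.0694 for Rps10. Leaving out LPS + G-CDs replicate 3, alone or with control replicate 1, gave -0.0128 for Rpl35a, -0.0787 for Rps10 and -0.0397 for Rps18, and their highest values without 1 library were 0.45, 0.216 and 0.322. With 1 library left out, Rpl24 lay between -0.437 without LPS replicate 1 and 0.103 without LPS replicate 2. Rpl24 stood at 0.471 with the reads of pseudogenes added, -0.525 with the length trend removed and -0.44 under TPM. Called rises of biogenesis factors after LPS fell to between 12 and 15 without any 1 LPS library or control replicate 2, and numbered 35 with the length trend removed. Called rises of initiation factors numbered 4 without any 1 LPS library and 14 with the length trend removed. Called falls of mitochondrial ribosomal protein genes fell to 1 or 2 without any 1 LPS library or control replicate 3, and numbered 14 with the length trend removed. The causes were not tested. Rpl24, Rpl21, Rpl36al and Rpl29 had at most 152 reads in any library.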
